A study of Homo sapiens with 6 samples.

Results

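RNA polymerase III and the factors that place it on its genes were followed as 29 transcripts, all of them among the 17088 genes with an FPKM value in the deposited table. The members were taken by gene symbol: 12 subunits of the enzyme, 4 genes of the initiation factor TFIIIB, the 5S rRNA gene factor TFIIIA, 6 subunits of TFIIIC, 5 subunits of the SNAP complex and the repressor MAF1. The cells were MDA-MB-231, a human triple-negative breast cancer line. One group carried a vector for overexpression of the noncoding RNA RPPH1 (labelled VecRPPH1, 3 libraries), and the other carried the control vector (VecNC, 3 libraries). The sources used here name neither the promoter that drives RPPH1 in the vector nor whether the cells were a pool or a clone. No label ties the replicates to separate cultures, so the p-values reflect the spread among these libraries, which may be technical.

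RNA polymerase III makes short noncoding RNAs, among them tRNAs, 5S rRNA, U6 snRNA and RPPH1, the RNA subunit of RNase P. It is recruited through promoters of different types. At 5S rRNA genes (type 1), TFIIIA binds first and brings TFIIIC and then TFIIIB. At tRNA genes (type 2), TFIIIC binds inside the gene and brings a TFIIIB made of BRF1, BDP1 and TBP. At type 3 promoters, which lie upstream of the gene as in RPPH1 and U6, the SNAP complex takes the place of TFIIIC, and BRF2 takes the place of BRF1. The comparison asked whether cells given more RPPH1 differed in the transcripts of the machinery that transcribes this class of RNA. The libraries selected polyadenylated RNA, so they measured the mRNAs of the machinery and not its products, and the RPPH1 transcript itself was not analysed here.

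The sequence upstream of the RPPH1 gene is shown because RPPH1 was the gene overexpressed and its own promoter is of type 3. It is the stretch between RPPH1 (chromosome 14, 20343075 to 20343407, minus strand) and its divergent neighbour PARP2 (20343582 to 20357905, plus strand; GRCh38, GENCODE 29). RefSeq ends RPPH1 slightly further out, at 20343411. The 170 bases at chr14:20343412-20343581, between that end and PARP2, were read from the RefSeq promoter table of GRCh38.p14 and are printed 5′ to 3′ on the minus strand, toward RPPH1.
RPPH1 upstream stretch: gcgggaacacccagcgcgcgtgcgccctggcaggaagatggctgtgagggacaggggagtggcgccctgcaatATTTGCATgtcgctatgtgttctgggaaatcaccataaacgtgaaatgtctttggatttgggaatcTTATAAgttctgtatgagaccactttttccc
The capitals mark matches to 2 motifs searched on both strands, the octamer ATGCAAAT and the TATA box core TATAA. The octamer, the site of POU2F1 (Oct-1), matched once, on the other strand, with its first printed base 101 bases upstream of the GENCODE start of RPPH1. TATAA matched once on each strand in an overlapping TTATAA that begins 35 bases upstream of the same start. The proximal sequence element that the SNAP complex binds was not searched for. For comparison, windows of the same size were taken in all 35116 RefSeq promoters. Each was placed relative to its own gene as this stretch is placed relative to PARP2, not to RPPH1. Of these windows, 1.1% held the octamer and 12.1% held TATAA. A match is a description of the letters and not a measured binding site. PARP2, on the other side of this stretch, was at 24.2 ± 0.475 FPKM in VecRPPH1 and 24.3 ± 2.12 FPKM in VecNC (mean ± SD over 3 libraries a group, the form used for all means).

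None of the 29 transcripts passed the test for a difference between VecRPPH1 and VecNC cells, and the differences in mean were small. FPKM is the number of fragments scaled to gene length and library total, so a comparison of levels between genes depends on the length assigned to each. Differences in mean FPKM were under 5% in 18 of the 29 genes and over 10% in 1, BRF2. Of all 10909 genes tested, 6668 differed by under 5% and 1381 by over 10%, so small differences were not particular to the members. By limma on log2(FPKM + 1), 0 of 29 members passed an adjusted p of 0.05, where 1 of all 10909 genes tested (0.00917%) did. At an unadjusted p under 0.05 there was 1 member, BRF2, where 7.97% of all genes tested reached that level. limma-voom, run on fragment numbers recovered from the FPKM values, called 0 members against 0.156% of all genes, and had 1 member, SNAPC1, at an unadjusted p under 0.05 against 8.67% of all genes. The groups did not overlap in 2 members, BRF2 and SNAPC1, where 13.9% of all genes tested had such groups.

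All 29 passed the filter of at least 1 FPKM in at least 3 libraries, with 181 to 3817 fragments per gene and library. Library totals were 17603126 to 18817269 fragments. On the log2(FPKM + 1) scale, 13 members had higher and 16 lower means in VecRPPH1, with a median log2 fold change of -0.01 against 0.00 for all genes tested (-0.0118 and 0.0046). The 95% intervals of the 29 fold changes by limma all lay between -0.285 and 0.297, on a scale that understates changes of genes at low levels. Those by voom, which does not use that scale, lay between -0.423 and 0.299, so none by voom reached a 1.5-fold difference (0.585 in log2). A missed threshold does not show that a level was unchanged. These intervals give, gene by gene, a 95% range for the underlying mean difference, judged from the spread among these libraries. In bulk RNA, a change in the share of cells that express a gene and a change in RNA per cell cannot be told apart.

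**Figure D1:**
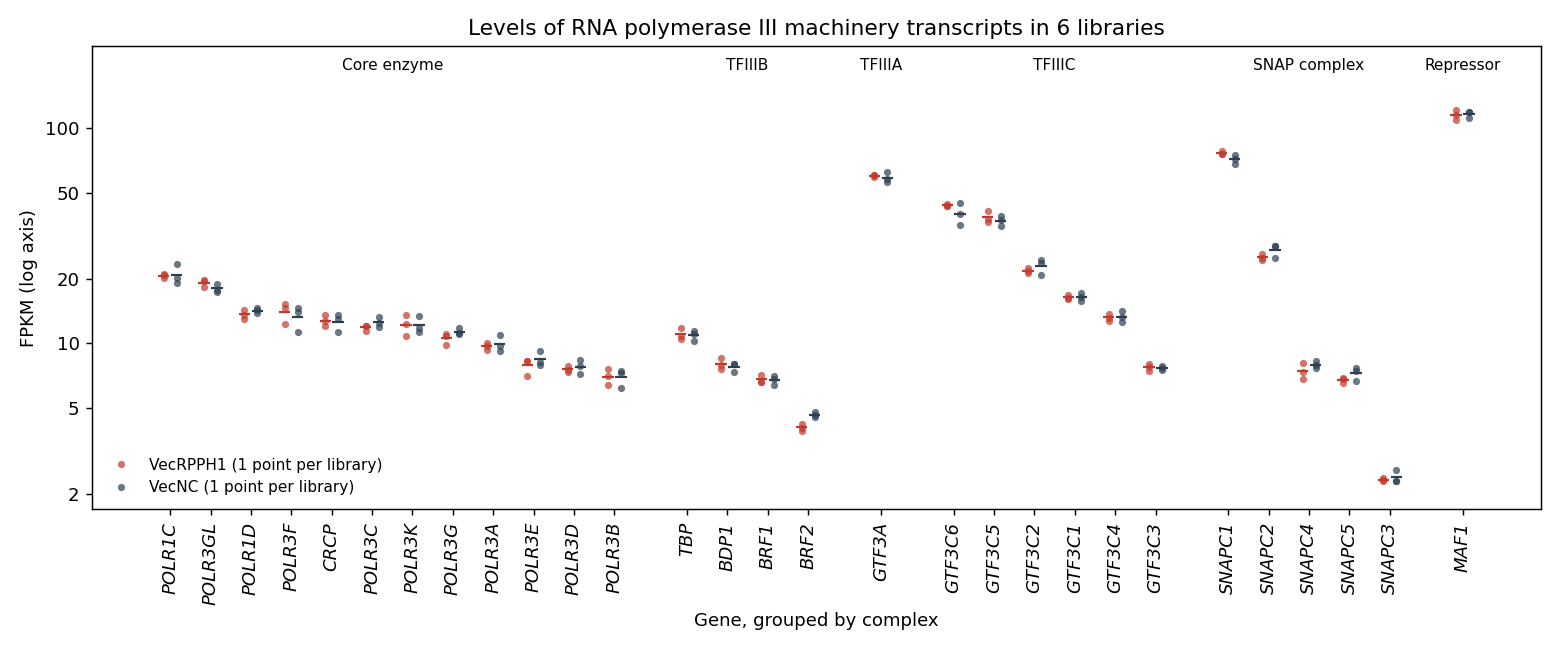
FPKM of each of the 29 genes on a log axis, with 1 point per library, a short line for each group mean, and VecRPPH1 left of VecNC for each gene. Levels run between about 2.37 FPKM for SNAPC3 and 115 FPKM for MAF1, and only BRF2 and SNAPC1 have groups that do not overlap.

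TFIIIB is the factor that holds the enzyme at the start site, and its type 3 subunit BRF2 had the largest fold change of all 29 members. BRF2 had 4.06, 3.94 and 4.24 FPKM in VecRPPH1 replicates 1, 2 and 3, against 4.63, 4.83 and 4.56 FPKM in VecNC replicates 1, 2 and 3. All 3 VecRPPH1 libraries were below all 3 VecNC libraries. The difference in mean was -12.7%, the log2 fold change was -0.16 (SE 0.0563, 95% interval -0.285 to -0.033), and it missed the threshold with a limma adjusted p of 0.546 (unadjusted p 0.0184, rank 367 of 10909). The unadjusted p stayed under 0.05 when VecRPPH1 replicate 1 or 3 or VecNC replicate 1 or 3 was left out, but not without replicate 2 of either group. By voom the log2 fold change was -0.20 with an interval of -0.423 to 0.032 (adjusted p 0.642). BRF2 rested on the fewest fragments of any member, 190, 181 and 191 in VecRPPH1 against 223, 225 and 214 in VecNC. Its expected counting error was 7.00% per library, above its spread between replicates of 3.70% in VecRPPH1 and 3.00% in VecNC.

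BRF2 lies on the minus strand of chromosome 8 (37843268 to 37849904; GRCh38, GENCODE 29), and 59.0% of its exonic bases overlap exons of ADGRA2 on the plus strand. The kit keeps the strand, but the sources used here do not say whether counting used it. ADGRA2 was at 0.0898, 0.137 and 0.0932 FPKM in VecRPPH1 and at 0.244, 0.0631 and 0.152 FPKM in VecNC, between 7 and 28 fragments per library. By library, ADGRA2 had 10, 15 and 10 fragments in VecRPPH1 and 28, 7 and 17 in VecNC. Fragments from the shared bases may have been assigned to either gene, and the part of this overlap in the BRF2 difference was not tested.

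The other 3 TFIIIB genes had means slightly higher in VecRPPH1. BRF1, the subunit for tRNA and 5S rRNA genes, had 6.63, 7.13 and 6.64 FPKM in VecRPPH1 against 6.83, 6.40 and 7.06 FPKM in VecNC. The groups overlapped (log2 fold change 0.01, limma adjusted p 0.983). BDP1, which completes TFIIIB on DNA at every promoter type, had 8.52, 7.59 and 7.93 FPKM in VecRPPH1 against 7.39, 8.00 and 8.04 FPKM in VecNC. TBP, the TATA-binding protein that serves all 3 nuclear RNA polymerases, had 11.7, 10.9 and 10.5 FPKM in VecRPPH1 against 11.1, 10.2 and 11.4 FPKM in VecNC. Both overlapped between groups, with log2 fold changes of 0.03 for BDP1 and 0.02 for TBP and limma adjusted p-values of 0.918 and 0.963. The median log2 fold change of the 4 TFIIIB genes was 0.01. Its sign turned on single libraries, as it was -0.03 without VecNC replicate 2, -0.02 without VecRPPH1 replicate 1 and 0.04 without VecNC replicate 3. It was 0.03 without VecRPPH1 replicate 3, 0.01 without VecNC replicate 1 and 0.00 without VecRPPH1 replicate 2.

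Since BRF1 and BRF2 take the same place in TFIIIB at different promoters, the ratio of BRF2 to BRF1 was compared within libraries, where scaling cancels. BRF2 FPKM was 0.613, 0.552 and 0.638 of BRF1 FPKM in VecRPPH1, against 0.678, 0.754 and 0.645 in VecNC. The groups came close, at 0.638 in VecRPPH1 replicate 3 and 0.645 in VecNC replicate 3, but did not overlap. This gap is small beside the expected counting error of BRF2, 7.00% per library. BRF1 averaged 6.80 FPKM in VecRPPH1 and 6.77 FPKM in VecNC, so the ratio mainly restates the BRF2 difference. It carries the same limit from the overlap with ADGRA2. The mean log2 ratio was -0.74 ± 0.108 in VecRPPH1 and -0.53 ± 0.115 in VecNC, a difference of -0.20. An exact two-sided permutation test gave p = 0.1, the smallest that 3 against 3 libraries allow, and 0.2 adjusted over the 2 ratios tested.

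The SNAP complex recognises the proximal sequence element of type 3 promoters. SNAPC1, the subunit with the highest level, had a higher mean in VecRPPH1, while the other 4 had lower means. SNAPC1 had 75.6, 75.5 and 78.1 FPKM in VecRPPH1, against 74.7, 71.8 and 68.0 FPKM in VecNC, so that all VecRPPH1 libraries were above all VecNC libraries. Its log2 fold change was 0.10 (SE 0.0426) with a limma adjusted p of 0.626 (unadjusted p 0.0504), and its voom adjusted p was 0.560 (unadjusted p 0.0374). SNAPC1 rested on 3236 to 3646 fragments per library. In GENCODE 29, 26.2% of the 31-base words of its longest transcript also occur in transcripts of other genes, led by AL137129.1, which overlaps it on the same strand, so part of its level is uncertain.

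SNAPC2 had 24.3, 26.1 and 25.0 FPKM in VecRPPH1 against 28.4, 24.8 and 28.2 FPKM in VecNC. VecNC replicate 2 lay within the VecRPPH1 range and the other 2 VecNC libraries above it (log2 fold change -0.11, limma adjusted p 0.680). SNAPC4, the largest subunit and one that contacts DNA, had 6.85, 8.11 and 7.34 FPKM in VecRPPH1 against 8.28, 7.68 and 7.92 FPKM in VecNC. VecRPPH1 replicate 2 was above 2 of the 3 VecNC libraries (log2 fold change -0.09, limma adjusted p 0.754). SNAPC5, the smallest subunit, had 6.83, 6.93 and 6.55 FPKM in VecRPPH1 against 7.67, 7.43 and 6.67 FPKM in VecNC, with VecNC replicate 3 inside the VecRPPH1 range (log2 fold change -0.09, limma adjusted p 0.744). In GENCODE 29, 23.2% of its exonic bases overlap AC116913.1 on the same strand. SNAPC3, another DNA-contacting subunit, had the lowest FPKM of all 29 members, though not the fewest fragments (333 to 388 per library). It had 2.38, 2.33 and 2.30 FPKM in VecRPPH1 against 2.29, 2.59 and 2.31 FPKM in VecNC. Its groups overlapped, and the log2 fold change was -0.03 (limma adjusted p 0.943).

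The median log2 fold change of the 5 SNAP genes was -0.09, beside 0.00 for all genes tested. It was -0.04 without VecRPPH1 replicate 1 and -0.05 without VecNC replicate 1. Across the complex, FPKM differed by more than 10-fold between subunits in both groups, as SNAPC1 averaged 76.4 FPKM and SNAPC3 2.34 FPKM in VecRPPH1 and 71.5 FPKM and 2.40 FPKM in VecNC.

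**Figure D2:**
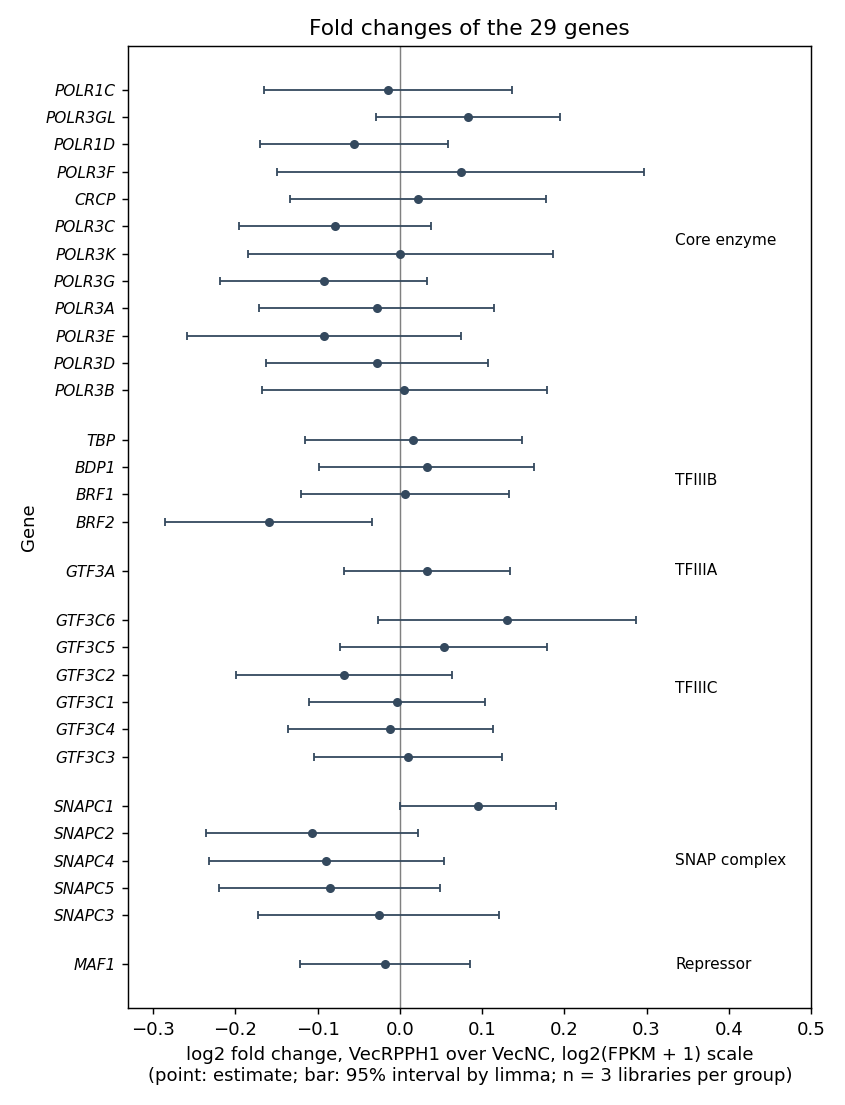
log2 fold change (VecRPPH1 over VecNC, log2(FPKM + 1) scale, horizontal axis) of each gene with its 95% interval by limma, n = 3 libraries per group, grouped by complex. Every interval except that of BRF2 includes 0, and none goes beyond 0.297 in either direction.

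In the core enzyme, 5 subunits had higher and 7 lower means in VecRPPH1, and the groups overlapped in all 12. Averages of the core genes over all libraries ran from 7.00 FPKM for POLR3B to 20.7 FPKM for POLR1C. POLR3A and POLR3B, the largest subunits, form the catalytic centre. POLR3A was at 9.70 ± 0.354 FPKM in VecRPPH1 and 9.93 ± 0.879 FPKM in VecNC, and POLR3B at 7.02 ± 0.597 FPKM in VecRPPH1 and 6.99 ± 0.673 FPKM in VecNC. POLR3D and POLR3E form a pair that helps start and end transcription, and were at 7.61 ± 0.252 FPKM and 7.90 ± 0.718 FPKM in VecRPPH1, against 7.79 ± 0.572 FPKM and 8.48 ± 0.690 FPKM in VecNC. The log2 fold changes of these 4 genes ran from -0.09 for POLR3E to 0.01 for POLR3B, none of which passed.

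POLR3C, POLR3F and either POLR3G or POLR3GL form the module that meets TFIIIB and opens the promoter. POLR3C was at 11.9 ± 0.336 FPKM in VecRPPH1 and 12.6 ± 0.674 FPKM in VecNC. POLR3F varied most of all members, at 15.3, 12.3 and 14.5 FPKM in VecRPPH1 and 14.7, 14.0 and 11.3 FPKM in VecNC. Its residual SD was 0.173 in log2 units, against a median of 0.0701 for the 29 members and 0.0681 for all genes tested, and its interval of -0.149 to 0.297 was the widest by limma, though not by voom. POLR3K, which takes part in RNA cleavage and termination, was at 12.2 ± 1.34 FPKM in VecRPPH1 and 12.2 ± 1.13 FPKM in VecNC, and CRCP, a subunit of the stalk, at 12.8 ± 0.747 FPKM in VecRPPH1 and 12.6 ± 1.17 FPKM in VecNC. POLR1C and POLR1D, which RNA polymerase I shares, were at 20.6 ± 0.510 FPKM and 13.6 ± 0.714 FPKM in VecRPPH1, against 20.9 ± 2.21 FPKM and 14.2 ± 0.378 FPKM in VecNC.

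POLR3G and POLR3GL are paralogs of which the enzyme holds 1 at a time. POLR3G is known from stem and transformed cells and POLR3GL from most tissues. In these cells POLR3GL had the higher FPKM in all 6 libraries. It had fewer fragments, 404 to 440 per library against 835 to 1050 for POLR3G, so this order rests on the scaling to gene length. POLR3G had 10.8, 9.86 and 11.1 FPKM in VecRPPH1 against 11.8, 11.0 and 11.2 FPKM in VecNC, with VecRPPH1 replicate 3 above VecNC replicate 2 (log2 fold change -0.09, limma adjusted p 0.702). POLR3GL had 18.3, 19.7 and 19.4 FPKM in VecRPPH1 against 17.4, 19.0 and 17.7 FPKM in VecNC, with VecNC replicate 2 above VecRPPH1 replicate 1 (log2 fold change 0.08, limma adjusted p 0.702).

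The ratio of POLR3G to POLR3GL FPKM was therefore 0.591, 0.501 and 0.571 in VecRPPH1, against 0.680, 0.581 and 0.634 in VecNC. VecRPPH1 replicate 1 was above VecNC replicate 2, so the groups overlapped. The mean log2 ratio was -0.85 ± 0.125 in VecRPPH1 and -0.67 ± 0.114 in VecNC, a difference of -0.19 with an exact two-sided permutation p of 0.2. The longest coding transcripts of these paralogs, on chromosome 5 (90471748 to 90514553) and chromosome 1 (145964702 to 145978848; GRCh38, GENCODE 29), share 0 words of 31 bases, and so do those of BRF1 and BRF2. POLR3GL shares 26.2% of its words with AC243547.3, which overlaps it on the same strand.

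**Figure D3:**
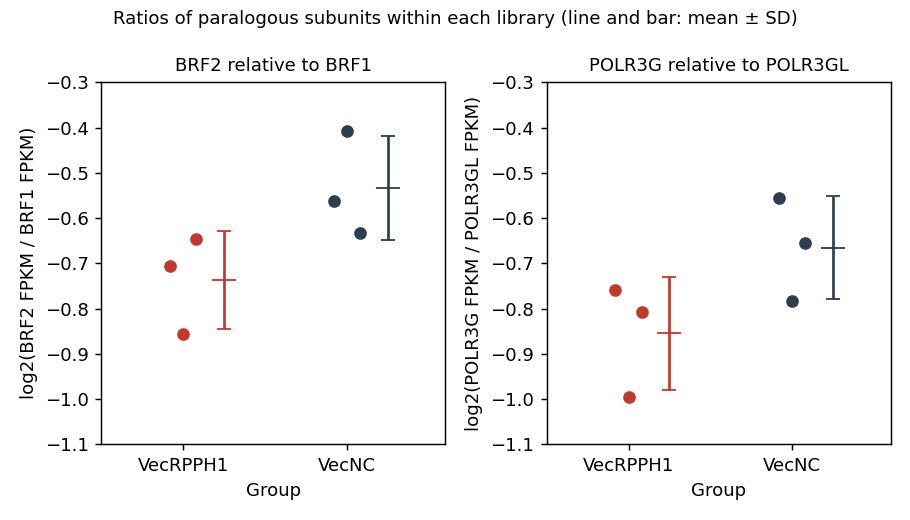
log2 ratio of FPKM within each library (vertical axis) for BRF2 over BRF1 and for POLR3G over POLR3GL, with VecRPPH1 left of VecNC, 1 point per library and the mean ± SD beside the points. The BRF2 to BRF1 ratios do not overlap between groups (means -0.74 and -0.53), but the nearest values are close (-0.647 in VecRPPH1 and -0.632 in VecNC). The POLR3G to POLR3GL ratios overlap (means -0.85 and -0.67).

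TFIIIC reads the internal promoter of tRNA genes, and its 6 subunits had 3 higher and 3 lower means in VecRPPH1, with a median log2 fold change of 0.00 (0.0033), which was -0.01 without VecRPPH1 replicate 1 and 0.03 without VecNC replicate 3. GTF3C6 had the largest difference in this complex and the highest level. It had 44.2, 43.3 and 43.5 FPKM in VecRPPH1 against 44.8, 35.6 and 39.7 FPKM in VecNC. VecNC replicate 1 was the highest of all 6 libraries and the other 2 VecNC libraries were below every VecRPPH1 library. The log2 fold change was 0.13 (SE 0.0701, limma adjusted p 0.680). It was 0.21 without VecNC replicate 1 (adjusted p 0.278) and 0.05 without VecNC replicate 2. GTF3C6 shares 29.8% of its 31-base words with transcripts of other genes, the largest share among the 29, so its level is uncertain.

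GTF3C1, the largest subunit, which binds the B box of tRNA genes, was at 16.3 ± 0.406 FPKM in VecRPPH1 and 16.4 ± 0.716 FPKM in VecNC, with a log2 fold change of -0.0034 and an interval of -0.11 to 0.10. GTF3C2, GTF3C3 and GTF3C4 were at 21.8 ± 0.617, 7.76 ± 0.292 and 13.2 ± 0.541 FPKM in VecRPPH1, against 22.9 ± 1.82, 7.70 ± 0.177 and 13.3 ± 0.810 FPKM in VecNC. GTF3C5, which works at the A box, was at 38.5 ± 2.40 FPKM in VecRPPH1 and 37.1 ± 2.05 FPKM in VecNC. These 5 genes overlapped between groups. For GTF3C2, 25.3% of exonic bases overlap genes on the opposite strand.

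GTF3A, which encodes TFIIIA, the zinc finger protein that starts assembly on 5S rRNA genes, had 60.5, 59.3 and 60.4 FPKM in VecRPPH1. In VecNC it had 62.4, 57.8 and 56.1 FPKM, a range that enclosed the VecRPPH1 values (log2 fold change 0.03, limma adjusted p 0.891). MAF1 represses RNA polymerase III when nutrients are short or mTORC1 is inactive, and had the highest FPKM of the 29 transcripts. It had 109, 121 and 114 FPKM in VecRPPH1 against 118, 112 and 118 FPKM in VecNC. The groups overlapped, and the log2 fold change was -0.02 with an interval of -0.121 to 0.085 (limma adjusted p 0.943). MAF1 is regulated mainly through phosphorylation, which RNA levels do not show.

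The members also varied among the libraries of one group. VecNC replicate 1 held the highest of the 6 values in 13 of the 29 genes, and VecNC replicate 2 the lowest in 8. VecNC replicate 1 also stood apart from the rest over all genes tested, at -10.9 on the first principal component against -0.107 to 4.40 for the other 5 libraries, and that component held 30.9% of the variance. Of the 12 core genes, 10 were above the VecNC mean in that library, where 5802 of all 10909 genes tested were. The median deviation of the core genes was 0.09 in log2 units there. It was -0.04 to -0.01 in the 3 VecRPPH1 libraries and -0.04 in both other VecNC libraries. The VecNC mean includes VecNC replicate 1, so high values in that library lower the deviations of the other 2 VecNC libraries. Without VecNC replicate 1, the median log2 fold change of the core was 0.03, where it was -0.02 with all libraries. The part of this library in the result of any single member was not tested beyond leaving it out. Without it, 0 of 29 members passed by limma after adjustment, where 7 of the 10909 genes tested did.

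**Figure D4:**
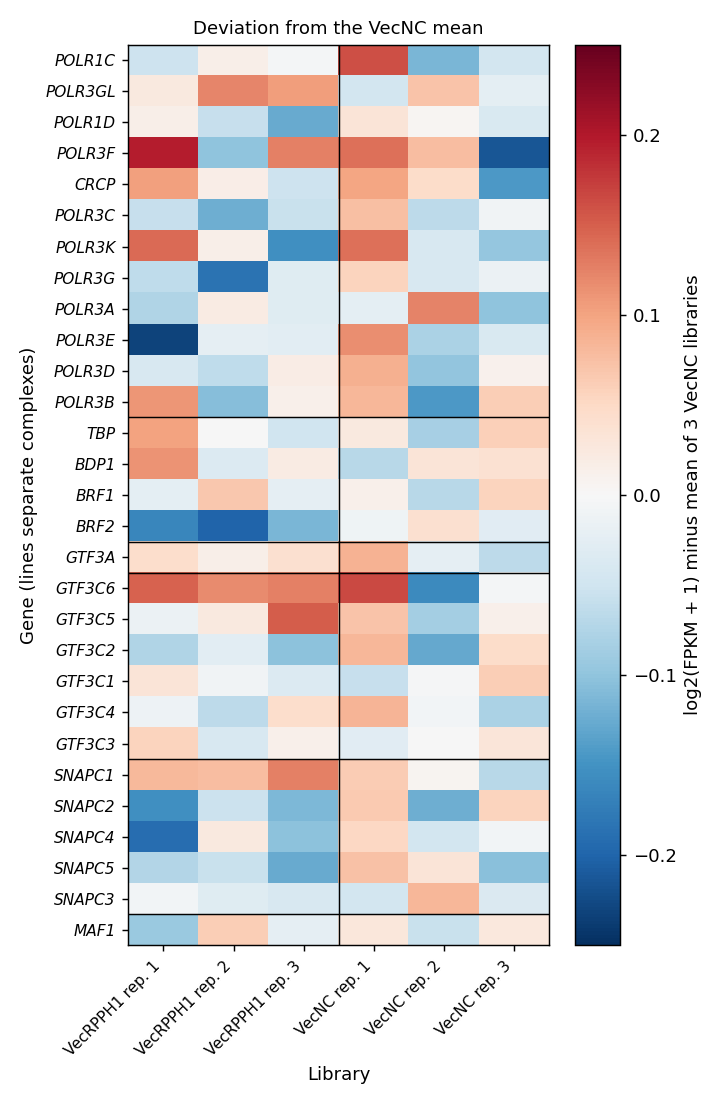
Deviation of each gene in each library from the mean of the 3 VecNC libraries, in log2(FPKM + 1) units, with the 3 VecRPPH1 libraries left of the 3 VecNC libraries and lines between complexes. In the core block at the top, VecNC replicate 1 is mostly red, with 10 of 12 genes above the VecNC mean, where 5802 of all 10909 genes tested were. BRF2 is blue and SNAPC1 red in all 3 VecRPPH1 columns, but other genes also keep their sign there. POLR3GL, GTF3A and GTF3C6 are above the VecNC mean in all 3 columns. POLR3C, POLR3E, POLR3G, GTF3C2, SNAPC2, SNAPC3 and SNAPC5 are below it in all 3, SNAPC3 only slightly (-0.0074, -0.0299 and -0.0398). The 3 columns share the same reference, the VecNC mean, which favours equal signs. The share of all genes tested that keep their sign was not counted.

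Other genes of the pathway were taken from lists that were not picked by how the genes moved, but were chosen with earlier results of these data known. The 5 subunits common to all 3 polymerases had 3 higher and 2 lower means, all within 5%, and 0 passed by limma or voom. POLR2F had the smallest p among them, at 9.79 ± 0.266 FPKM in VecRPPH1 and 9.46 ± 0.959 FPKM in VecNC. Of 6 subunits specific to RNA polymerase I, 0 passed, and POLR1G had the smallest p at 13.4 ± 0.817 FPKM in VecRPPH1 and 15.4 ± 1.79 FPKM in VecNC (log2 fold change -0.19, limma adjusted p 0.582). Of 7 subunits of RNA polymerase II, 0 passed, and POLR2A, its largest subunit, had the smallest p at 48.9 ± 0.750 FPKM in VecRPPH1 and 52.0 ± 2.04 FPKM in VecNC (limma adjusted p 0.662).

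Of 16 regulators of RNA polymerase III, 9 had higher and 7 lower means in VecRPPH1, and 0 passed by limma or voom. RPTOR, the mTORC1 scaffold that acts upstream of MAF1, had the smallest p, at 19.7 ± 0.207 FPKM in VecRPPH1 and 21.1 ± 0.393 FPKM in VecNC (log2 fold change -0.09, limma adjusted p 0.622). Of 7 genes whose proteins bind or mature its transcripts, 0 passed. LARP7, which binds 7SK RNA, had the smallest p at 22.9 ± 1.22 FPKM in VecRPPH1 and 21.0 ± 0.831 FPKM in VecNC (log2 fold change 0.12, limma adjusted p 0.617). Over the 41 tested genes of these lists, 3 had an unadjusted p under 0.05 by limma and 4 by voom, shares near the 7.97% and 8.67% of all genes tested. The gene annotation deposited with the values was searched for Gene Ontology terms naming RNA polymerase III, a transcription factor TFIII or an snRNA-activating complex. All 29 members and 24 other genes considered here had such a term, and 8 of these 24 are also in the lists above. Of the 24, 23 were tested, and 0 passed by limma or voom, with 10 higher and 13 lower means. RO60, whose protein binds Y RNAs, had the smallest p at 10.8 ± 0.225 FPKM in VecRPPH1 and 9.93 ± 0.205 FPKM in VecNC (limma adjusted p 0.619).

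The libraries were checked against markers listed for mesenchymal breast cells, for luminal breast cells and for other cell types. Vimentin (VIM) was at 2599 ± 21.9 FPKM in VecRPPH1 and 2699 ± 38.3 FPKM in VecNC, and the other 5 genes listed for mesenchymal breast cells (CD44, AXL, MSN, CAV1 and LAMB3) had means of 83.4 to 279 FPKM in VecRPPH1 and 77.7 to 318 FPKM in VecNC. Groups did not overlap in 4 of the 6, where 13.9% of all genes tested had such groups. Of these 4, VIM, MSN and LAMB3 were lower and CAV1 higher in VecRPPH1. By limma 0 of the 6 passed, and 2 had an unadjusted p under 0.05, where 7.97% of all genes tested reached that level. LAMB3, a laminin chain of basal epithelium, passed by voom (adjusted p 0.0272), as 0.156% of all genes tested did. It had 271, 295 and 273 FPKM in VecRPPH1 against 313, 320.5 and 319.8 FPKM in VecNC. Of the luminal markers, the oestrogen receptor gene ESR1 had 0 to 5 fragments per library, the epithelial cadherin gene CDH1 had 0 to 13, and FOXA1 averaged 0.195 FPKM in VecRPPH1 and 0.240 FPKM in VecNC. GATA3 was at 3.30 FPKM in VecRPPH1 and 2.80 FPKM in VecNC, with groups that did not overlap (limma adjusted p 0.643). PTPRC and CD3E, markers of blood cells, averaged 0.106 and 0.0276 FPKM in VecRPPH1, against 0.0487 and 0.0269 FPKM in VecNC. The endothelial marker PECAM1 and the fibroblast marker COL1A1 averaged 0.772 and 3.76 FPKM in VecRPPH1, against 0.579 and 3.81 FPKM in VecNC.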

How the data were processed

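The authors deposited 1 table of FPKM values with a column for each of the 6 libraries. Per the labels' protocols, libraries were made from total RNA with a stranded Illumina TruSeq mRNA kit. The submitters' processing notes list Trimmomatic, HISAT2, Cufflinks and GRCh38 and give no version. Annotation release and strand setting are not given in the sources used here. Since FPKM removes depth and gene length, the library totals were recovered from the values. With those totals, 10909 of the 10909 tested genes had whole fragment numbers in all libraries (tolerance 0.01 fragments plus 3e-08 of the value), and 99.4% of the fragments fell in listed genes.

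The main test was limma 3.58.1 (R 4.3.3), fitted to log2(FPKM + 1) of every gene that reached 1 FPKM in 3 or more libraries. Group was the only term, and a mean-variance trend was used. This scale understates changes of genes at low levels. Adjustment was by Benjamini-Hochberg across all 10909 genes, and the threshold was 0.05. The recovered fragments were tested with voom, and ratios by exact permutation. The fit and the recovery were tested on simulated data. Expected counting errors cover counting only.

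The members and lists were chosen with earlier results of these data known. Per-library values were given for TFIIIB, the SNAP complex, POLR3G, POLR3GL, MAF1, and the 3 members with the smallest p, highest level and lowest level. From other lists the gene with the smallest p was named. One gene of these lists is not reported here, and its values are left out of their counts. POLR3F was given by library after its values were seen, and the Gene Ontology list and the neighbours ADGRA2 and PARP2 were also added then. Alternatives were a pseudocount of 0.1, no filter, the replicate number as a block, median-of-ratios rescaling and leaving out each library. Coordinates, overlaps and shared 31-base words came from GENCODE 29. Overlaps were not named with the values of every member. CRCP shares 19.0% of its words with transcripts of other genes, and 18.2% of POLR1C exonic bases overlap genes on the opposite strand.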

Additional observations from a re-analysis of the deposited data

How the results depend on the processing

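No member passed the adjusted threshold in limma under any of the alternatives run or in voom, and the lowest adjusted p of a member under any of them was 0.278 (GTF3C6 without VecNC replicate 1). Of the 29 fold changes, 14 kept their sign in all alternatives, BRF2, SNAPC1, GTF3C6, POLR3G and POLR3GL among them. The other 15 changed sign when 1 library was left out, with ranges of log2 fold change of -0.0787 to 0.0341 for POLR3A, -0.0664 to 0.0609 for POLR3B, -0.0777 to 0.0162 for POLR3D, -0.0330 to 0.162 for POLR3F, -0.0700 to 0.0773 for POLR3K, -0.0714 to 0.0660 for POLR1C, -0.0494 to 0.0715 for CRCP, -0.0279 to 0.0341 for BRF1, -0.00686 to 0.0666 for BDP1, -0.0260 to 0.0495 for TBP, -0.0578 to 0.0193 for MAF1, -0.0323 to 0.0270 for GTF3C1, -0.0134 to 0.0347 for GTF3C3, -0.0509 to 0.0303 for GTF3C4 and -0.0484 to 0.0154 for SNAPC3. POLR3K was also at -0.00535 with median-of-ratios rescaling. Leaving out 1 library gave medians of -0.0597 to 0.0313 for the core, -0.0266 to 0.0398 for TFIIIB, -0.0121 to 0.0260 for TFIIIC and -0.1002 to -0.0389 for the SNAP complex, differences in log2 ratio of -0.253 to -0.140 for BRF2 to BRF1 and -0.248 to -0.118 for POLR3G to POLR3GL, and counts of 0 to 7 genes passing over all genes tested, the 7 without VecNC replicate 1. That count was 1 with all libraries, 0 with no filter, 0 with the replicate block and 17 by voom; the cause was not tested. With the replicate block, 0 members passed, and the ratio differences stayed at -0.203 and -0.189, each with a sign-flip p of 0.25, the smallest possible. Same-numbered libraries did not deviate together (correlations of 0.0566, 0.018 and -0.104), so the numbers were not taken to pair them. Leaving out a library also gave the BRF2 to BRF1 ratio exact permutation p-values of 0.1 to 0.2. Depth limits BRF2 most, with 181 to 225 fragments per library.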

Other observations

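Within the SNAP complex, the level of SNAPC1 relative to the other 4 subunits was set against the groups after the values had been seen, so no test was made. The log2 ratio of SNAPC1 FPKM to the mean of the other 4 on the log2 scale was 3.39, 3.30 and 3.43 in VecRPPH1 and 3.22, 3.20 and 3.15 in VecNC. All 3 VecRPPH1 libraries were above all 3 VecNC libraries. The ratio sets the subunit with a higher mean in VecRPPH1 against the 4 with lower means. This choice favoured a separation, which is therefore no further support for a difference. A ratio within a library does not show which subunit lies behind it, and no subunit passed the test. The limit on SNAPC1 from words shared with other genes applies here too.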
